A study of Homo sapiens with 6 samples.

Results

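The SLC25 family is a family of carrier proteins, most of them in the mitochondrial inner membrane. Its members were taken here as the protein-coding genes whose symbol is SLC25A followed by a number, and 48 such genes were present among the 19920 protein-coding genes and 67060 genes of the count table. They were compared between 3 libraries of SH-SY5Y cells infected with Ad CMV GFP (replicates 1, 3 and 4) and 3 libraries of cells infected with Ad CMV 3xFlag-*Esrrg* (replicates 2, 3 and 4), with RNA taken 24 h after infection. SH-SY5Y is an established human neuroblastoma line, grown here in DMEM with fetal bovine serum and labelled as a neuronal progenitor. The Esrrg virus carries the mouse coding sequence of the nuclear receptor ERRγ with a 3xFlag tag behind the CMV promoter, which is active in most cell types, and the control cells were exposed to an adenovirus as well. All libraries came from this 1 line, and the labels do not say whether replicates were separate cultures, so that p-values measure the spread between these libraries, which may be technical. Of the 48 members, 39 had enough counts to be tested and 9 did not.

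The mitochondrial inner membrane is closed to most charged molecules, and SLC25 carriers move particular ones across it, commonly by exchanging a molecule outside for one inside. ADP/ATP translocases and the phosphate carrier feed ATP synthase and export its product. Other members carry the acids of the citric acid cycle, amino acids, acylcarnitines, iron, nucleotides and cofactors, and relatives of the uncoupling protein UCP1 conduct protons or small anions. ERRγ is a nuclear receptor that binds the DNA sequence AAGGTCA and is known as a regulator of genes for oxidative metabolism, and the comparison asks which carriers differ in transcript level when *Esrrg* is supplied.

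Gene counts summed to 24969759 to 29700980 in the Ad CMV GFP libraries and to 26513620 to 40859666 in the Ad CMV 3xFlag-*Esrrg* libraries. *ESRRG* itself, counted from reads that aligned to the human gene, was at 87 ± 3.4 CPM (counts per 1000000 after TMM scaling; SD, n = 3) with Ad CMV GFP and at 706 ± 119 with the Esrrg virus. Reads that fell on no gene made up 51.28% to 52.22% of reads with Ad CMV GFP, but 46.58%, 31.61% and 29.47% in Ad CMV 3xFlag-*Esrrg* replicates 2, 3 and 4, so that replicate 2 lay between the control libraries and the other two. The sympathoadrenal markers *PHOX2A* (50.5 to 116 CPM) and *HAND2* (233 to 386 CPM) were present in all libraries, as were 8 of 10 such markers, whereas *TH* and *CHGA* were listed at 0 counts. The mesenchymal genes *PRRX1* (404 to 433 CPM), *COL3A1* (2452 to 2639 CPM) and *PDGFRB* (124 to 148 CPM) were also high in all of them. The other 7 of these 10 markers of other cell types were low, with *CD3E* and *ALB* at 0 counts, *CDH1* and *TWIST2*, the latter also mesenchymal, at 0 to 2, and *PTPRC*, *PECAM1* and *EPCAM* at 0.302 to 2.48 CPM. The summed level of the 10 was 3113 to 3209 CPM with Ad CMV GFP and 3008 to 3194 CPM with the Esrrg virus. The summed level of the 10 neuroblastoma markers was 842 to 900 and 594 to 789 CPM, and the part of these differences in the values below was not tested. Throughout, fewer cells with a transcript and less of it per cell cannot be told apart.

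With the Esrrg virus, 16 of the 39 tested members (41%) were called higher and 4 (10.3%) lower. A call needed a Benjamini-Hochberg adjusted p below 0.05 over all tested genes in edgeR's quasi-likelihood test and a change of at least 1.5-fold. By the same rule 17.3% of all 24500 tested genes and 25.9% of the 13746 tested protein-coding genes were called higher, and 16.8% and 12.4% lower. In this fit the share of carriers called higher was above both backgrounds, and the share called lower was near that of protein-coding genes. Of those called lower, *SLC25A27* had enough counts for testing through the Ad CMV GFP libraries alone. Among the 37 members with at least 10 counts in every library, a minimum that no group could pass alone, 16 were called higher and 3 lower. No share over all genes is available under this minimum, so these counts cannot be compared with the backgrounds above. Their median log2 fold change was 0.43, against 0.11 over protein-coding genes under the same minimum. The median log2 fold change of the tested members was 0.42, against -0.10 over all tested genes and 0.12 over protein-coding genes. With library size as the only scaling, the split was 10 higher to 7 lower and the member median 0.09, while the median over all tested genes moved to -0.42. A further 6 members had an adjusted p below 0.05 in the same test at less than 1.5-fold, so that 26 of 39 passed on p alone, where 47.8% of all tested genes and 60% of protein-coding genes did. The 3 libraries of one group lay wholly above or below the 3 of the other for 31 members (79.5%), as they did for 58.1% of all tested genes and 70.3% of protein-coding genes.

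The summed level of all members was 1417, 1557 and 1514 CPM in Ad CMV GFP replicates 1, 3 and 4 and 2176, 2893 and 3057 CPM in Ad CMV 3xFlag-*Esrrg* replicates 2, 3 and 4, a ratio of means of 1.81. *SLC25A3* alone made up 318 ± 24.4 of the 1496 ± 71.5 CPM with Ad CMV GFP (SD, n = 3) and 797 ± 198 of the 2708 ± 468 CPM with the Esrrg virus. Called members were not spread evenly over the substrates. All 7 tested carriers of ADP/ATP, phosphate, di- and tricarboxylates and carnitine were called higher, whereas edgeR called 0 higher and 2 lower of the 13 tested carriers of ATP-Mg or iron, relatives of uncoupling proteins and members without an agreed substrate. Of these 13, 3 were higher at an unadjusted p below 0.05, and DESeq2 called 1 higher. These gatherings of groups were made after the values had been seen, the substrate groups were not tested against each other, and all but the nucleotide and cofactor carriers hold 5 or fewer tested members.

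**Figure D1:**
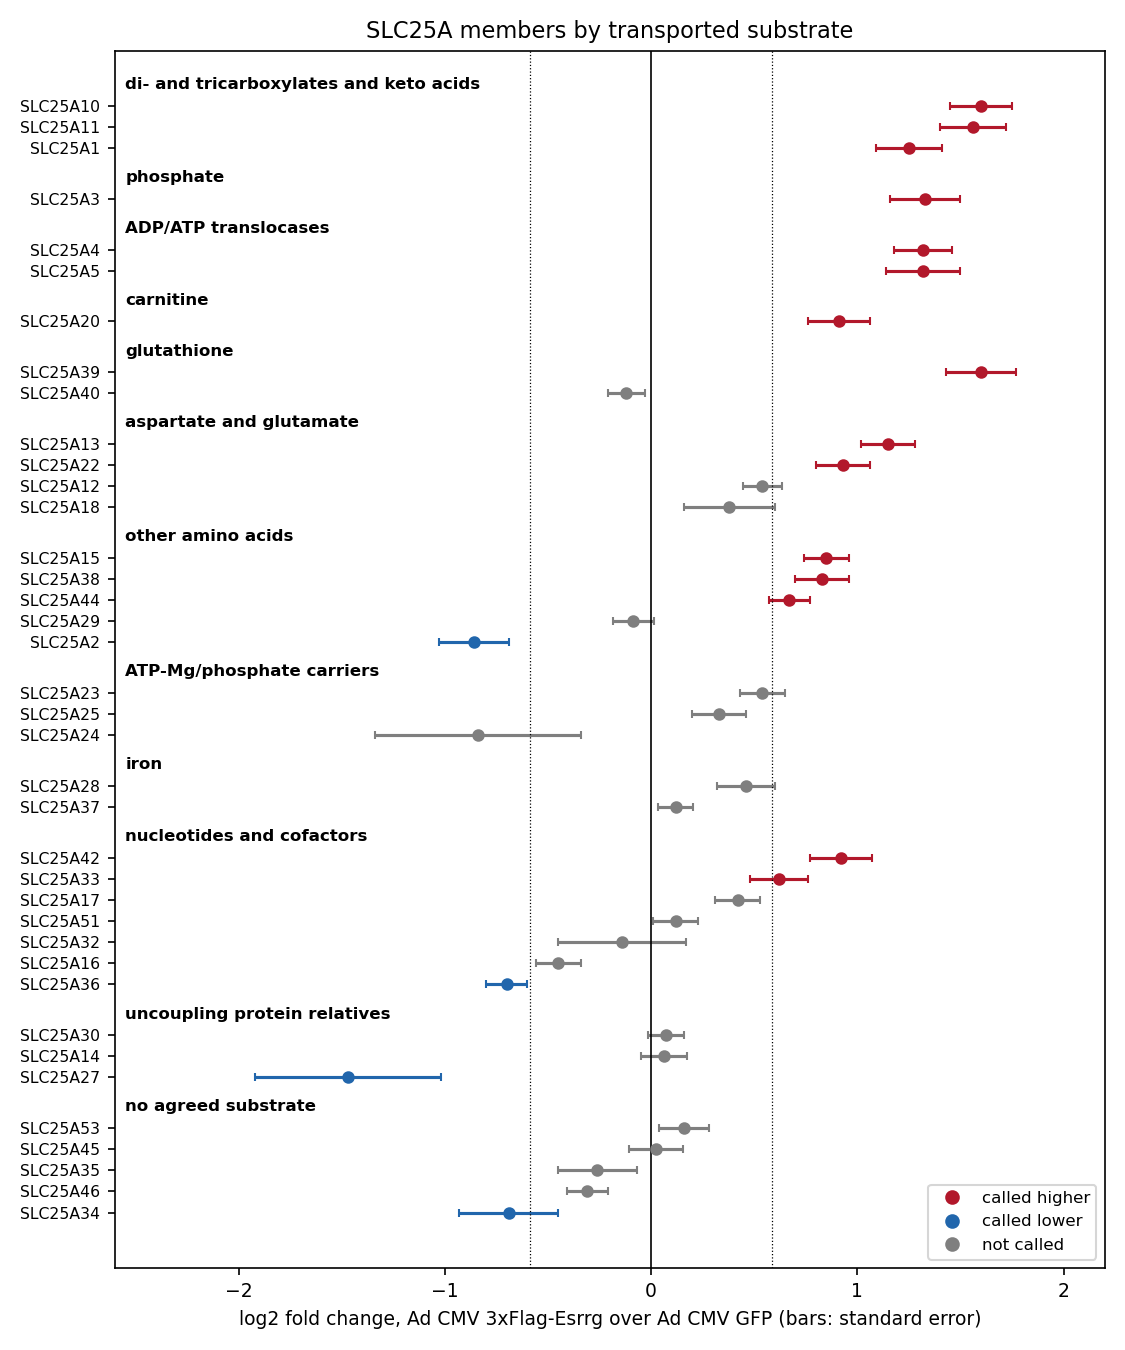
The log2 fold change of each tested SLC25A member (x axis, Ad CMV 3xFlag-*Esrrg* over Ad CMV GFP, n = 3 libraries each) is plotted with its standard error, grouped by transported substrate, with 1 tested member not shown. Red points were called higher, blue points lower and grey points neither, and the dotted lines mark 1.5-fold. All points of the 4 groups at the top lie to the right of the upper line, and the values run from -1.47 for *SLC25A27* to 1.60 for *SLC25A10* and *SLC25A39*.

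Both ADP/ATP translocases that could be tested were called higher. *SLC25A4* (ANT1, the heart and muscle isoform; chromosome 4, 185143266 to 185150382 on GRCh38) was at 20.8, 23.4 and 24.3 CPM in Ad CMV GFP replicates 1, 3 and 4 and at 44.9, 63.5 and 63 CPM in Ad CMV 3xFlag-*Esrrg* replicates 2, 3 and 4. The groups did not overlap, and the log2 fold change was 1.32 (SE 0.14, adjusted p = 7.0e-05, edgeR's quasi-likelihood test with Benjamini-Hochberg adjustment, as in all that follows). *SLC25A5* (ANT2, the isoform of proliferating cells; chromosome X, 119468422 to 119471396) was more abundant, with 108, 134 and 125 CPM against 210, 352 and 356 CPM. Its log2 fold change was also 1.32 (SE 0.18, adjusted p = 2.9e-04 in edgeR's test). Of the 31-base words of its longest transcript, 38.4% occur elsewhere in the genome, and reads that aligned to several places were not counted on a gene. Among other members called higher, this share was 40.3% for *SLC25A33*, 20.9% for *SLC25A15*, 19.1% for *SLC25A38* and 18.4% for *SLC25A3*. *SLC25A3* (chromosome 12, 98593591 to 98606379), the carrier that brings phosphate to ATP synthase, was at 290, 335 and 328 CPM and at 570, 885 and 935 CPM. Its log2 fold change of 1.33 (SE 0.17, adjusted p = 2.1e-04 in edgeR's test) was close to those of the translocases with which it supplies the same enzyme. In each of these genes, Esrrg replicate 2 was the lowest of its group and still above every control library.

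All 3 tested carriers of di- and tricarboxylates were called higher. *SLC25A1* (chromosome 22, 19175581 to 19178739), the citrate carrier that provides the cytosol with acetyl units for fatty acid synthesis, was at 82.5, 93.8 and 89.2 CPM with Ad CMV GFP and at 158, 220 and 252 CPM with the Esrrg virus, a log2 fold change of 1.25 (SE 0.16, adjusted p = 1.6e-04, edgeR). *SLC25A11* (chromosome 17, 4937130 to 4940053), the oxoglutarate carrier, was at 27, 31.2 and 32 CPM and at 66, 96.3 and 104 CPM, with a log2 fold change of 1.56 (SE 0.16, adjusted p = 5.8e-05, edgeR). This carrier exchanges oxoglutarate for malate and is a part of the malate-aspartate shuttle, which moves the electrons of cytosolic NADH into mitochondria. *SLC25A10* (chromosome 17, 81712236 to 81721016), the dicarboxylate carrier for malate and succinate, was far less abundant, at 3.51, 3.69 and 2.96 CPM and at 9.54, 9.77 and 11.5 CPM. With a log2 fold change of 1.60 (SE 0.15, adjusted p = 3.6e-05, edgeR) it was among the members that differed most, although 46.6% of its exon bases overlap another gene annotated on the same strand. All 3 of its Esrrg libraries stood close together, well above the controls.

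The aspartate/glutamate carriers complete the malate-aspartate shuttle, and both had higher values with the Esrrg virus. *SLC25A13* (citrin; chromosome 7, 96120220 to 96322147) was at 73.9, 81.3 and 79.6 CPM with Ad CMV GFP and at 140, 191 and 191 CPM with the Esrrg virus, a log2 fold change of 1.15 (SE 0.13, adjusted p = 9.2e-05, edgeR). *SLC25A12* (aralar, the isoform typical of brain and muscle; chromosome 2, 171783405 to 171999859) was at 25.6, 28.4 and 27.3 CPM and at 41.3, 39.3 and 37.5 CPM. Its groups did not overlap either, and its log2 fold change of 0.54 (SE 0.093, adjusted p = 9.4e-04, edgeR) stayed under 1.5-fold. Unlike *SLC25A13*, it was highest in Esrrg replicate 2. It was not called in 12 of the 19 alternative fits and was called higher in the others, among them DESeq2 (0.63), the correction for GC content and length (0.68) and the fit with the share of reads on no gene as a covariate. In that last fit *SLC25A12* (0.64) and *SLC25A13* (0.69) were close, so that the size of the gap between them depends on the fit. The share of reads on no gene did not overlap between the groups, so that this fit leans on Esrrg replicate 2. There *SLC25A12* was highest and *SLC25A13* lowest of the Esrrg libraries. Of the 2 glutamate carriers, *SLC25A22* was called higher (26, 27.2 and 26.2 CPM against 41.9, 48.8 and 60.6 CPM, log2 fold change 0.93). *SLC25A18* was scarce, at 49 to 94 counts per library, and its groups overlapped (log2 fold change 0.38, SE 0.22, adjusted p = 0.17, edgeR). With the correction for GC content and length, *SLC25A22* was no longer called (log2 fold change 0.43), nor was it with the covariate (0.51).

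Of the 5 carriers of other amino acids, 3 were called higher and 1 lower. *SLC25A15* (chromosome 13, 40789412 to 40812460), the ornithine carrier of the urea cycle, was at 44.9, 51.7 and 49.4 CPM with Ad CMV GFP and at 74.6, 90.8 and 97 CPM with the Esrrg virus. *SLC25A38*, which brings glycine to mitochondria for the first step of heme synthesis, was at 25.7, 29.9 and 27.4 CPM and at 40.2, 50.3 and 57.3 CPM, and *SLC25A44*, a carrier of branched-chain amino acids, was at 71, 70.7 and 73.3 CPM and at 102, 116 and 124 CPM. None of these 3 overlapped between groups, with log2 fold changes of 0.85, 0.83 and 0.67 (adjusted p = 2.5e-04, 5.6e-04 and 4.1e-04, edgeR). All 3 lost their call with library size as the only scaling (0.51, 0.50 and 0.34) and with the share of reads on no gene as a covariate (0.50, 0.38 and 0.42). *SLC25A44* lost it also with the GC content and length correction (0.54) and among protein-coding genes only (0.53). *SLC25A2* (chromosome 5, 141302635 to 141304049), an intronless gene for another ornithine carrier, went the other way, with 120, 125 and 139 counts against 67, 68 and 81. On the normalized scale these were 4.26, 4.04 and 4.2 CPM against 2.51, 2.02 and 2.38 CPM (log2 fold change -0.86, SE 0.17, adjusted p = 0.002, edgeR). The 2 ornithine carriers were thus called in opposite directions in this fit. *SLC25A2* was not called with the covariate (-0.69), with a 2-fold threshold or in the test against 1.5-fold. With the covariate neither ornithine carrier was called. *SLC25A29*, a carrier of basic amino acids, overlapped between groups at 47.3 to 58.9 CPM. *SLC25A20* (chromosome 3, 48856926 to 48898904), which takes acylcarnitines in for fatty acid oxidation, was called higher at 15.3, 19.3 and 18.9 CPM against 26.4, 35.1 and 39.3 CPM (log2 fold change 0.91, SE 0.15, adjusted p = 7.6e-04, edgeR). It was not called with library size only (0.58) or with the covariate (0.38).

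The carriers of nucleotides and cofactors moved in both directions. *SLC25A42*, a coenzyme A carrier, was called higher at 5.39, 6.05 and 5.17 CPM against 8.42, 11.1 and 11.8 CPM (log2 fold change 0.92, adjusted p = 8.1e-04, edgeR). The call was lost after correction for GC content and length (0.49, or 0.53 when blocked by replicate number), with library size only (0.58) and with the covariate (0.46). *SLC25A16*, related to it and also linked to coenzyme A, had higher values with Ad CMV GFP, at 40.1, 40.3 and 39.7 CPM against 34, 27.1 and 27 CPM, and did not reach 1.5-fold (log2 fold change -0.45, adjusted p = 0.0065, edgeR). *SLC25A33* and *SLC25A36* both carry pyrimidine nucleotides into mitochondria. *SLC25A33* was called higher at 15.3, 17.9 and 16.4 CPM against 19.9, 28.5 and 27.8 CPM (log2 fold change 0.62, SE 0.14, adjusted p = 0.0047, edgeR), just past 1.5-fold, and the call was kept in 3 of the 6 fits that left out 1 library and lost with library size only (0.28) and with the covariate (0.11). *SLC25A36* (chromosome 3, 140941830 to 140980995) was called lower at 96, 98.4 and 99.8 CPM against 68.2, 57.4 and 54.9 CPM (log2 fold change -0.70, SE 0.10, adjusted p = 3.7e-04, edgeR), and was not called with the correction for GC content and length (-0.39) or with the covariate (-0.43).

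The remaining members of this group were not called. *SLC25A17*, a peroxisomal carrier of coenzyme A and other cofactors, had a log2 fold change of 0.42 (adjusted p = 0.0085, edgeR), and *SLC25A51*, which imports NAD, one of 0.12. *SLC25A32*, the carrier of folate and FAD, was at 22 to 42 counts per library, and 80.8% of its exon bases lie in other genes too, 69.7% on the same strand, where reads are not assigned to a single gene. With the abundant *SLC25A36* and *SLC25A16* at lower values, the summed level of the group was 199, 209 and 210 CPM with Ad CMV GFP and 186, 187 and 184 CPM with the Esrrg virus, although its median log2 fold change was 0.27 (-0.058 with library size as the only scaling).

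**Figure D2:**
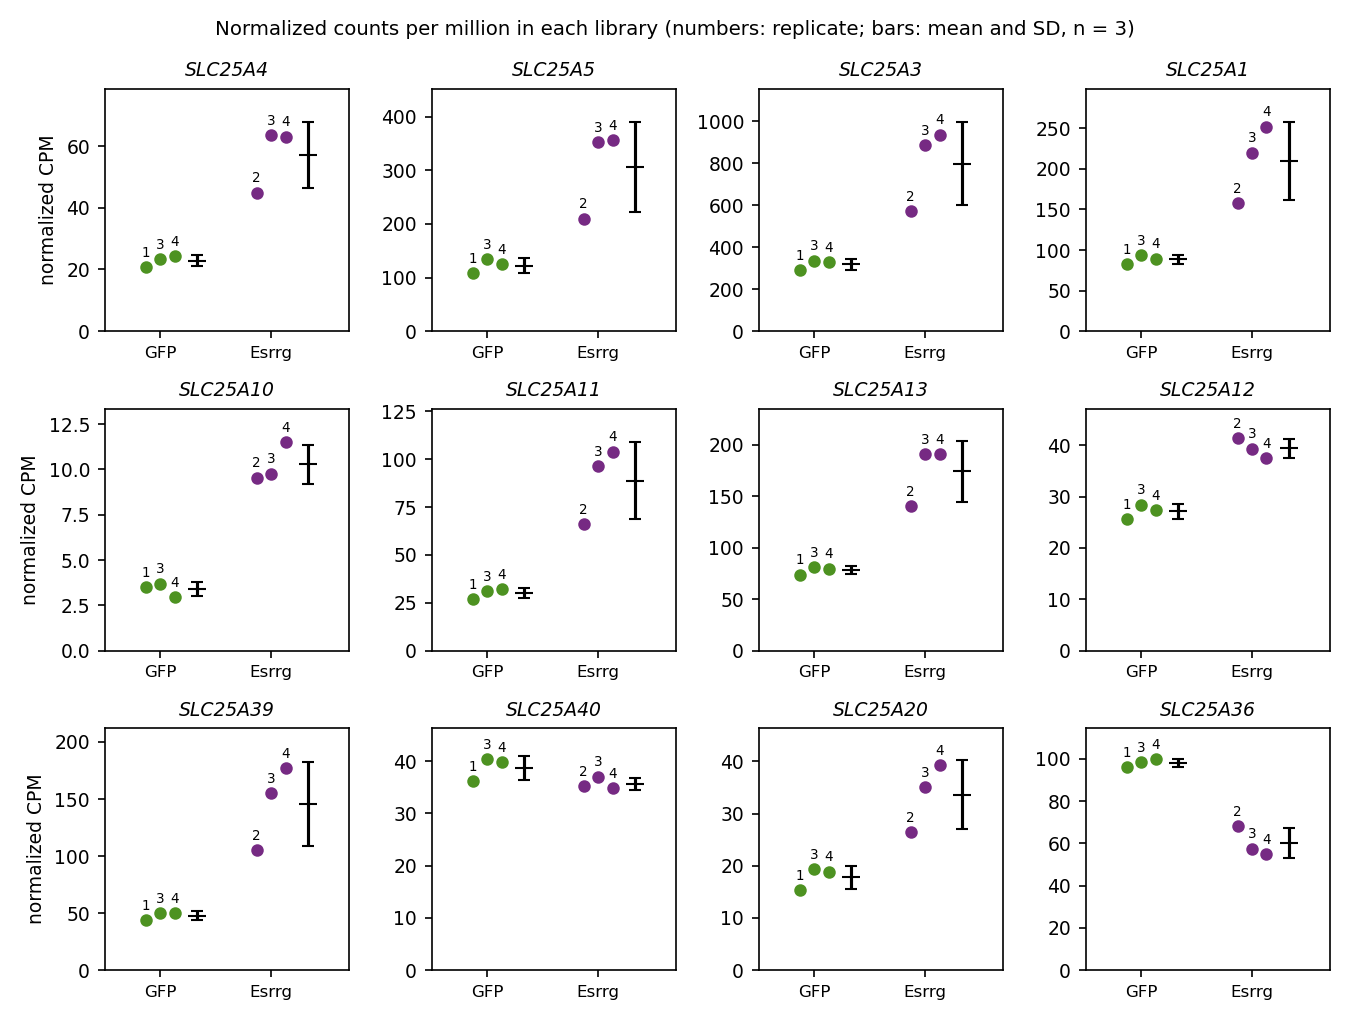
Normalized counts per 1000000 (CPM, y axis, from 0) of 12 carriers are shown in each library, with Ad CMV GFP in green and Ad CMV 3xFlag-*Esrrg* (Esrrg) in purple, replicate numbers above the points, and the mean and SD of 3 libraries beside them. Esrrg replicate 2 was the lowest of its group for the 9 carriers called higher that are shown, and *SLC25A36* ran the other way, from 96 to 99.8 CPM down to 54.9 to 68.2 CPM.

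The glutathione carriers were split. *SLC25A39* (chromosome 17, 44319625 to 44324870), which imports glutathione, the main thiol antioxidant, was at 43.8, 49.9 and 50 CPM with Ad CMV GFP and at 105, 155 and 177 CPM with the Esrrg virus. The log2 fold change was 1.60 (SE 0.17, adjusted p = 6.9e-05, edgeR), shared with *SLC25A10* as the largest of the family. *SLC25A40* (chromosome 7, 87833568 to 87876360), its paralog with the same role, was at 36.1, 40.3 and 39.8 CPM and at 35.2, 37 and 34.8 CPM. Its groups overlapped, and its log2 fold change was -0.12 (SE 0.091, adjusted p = 0.30, edgeR). A processed copy of the first, *SLC25A39P1*, was at 6.19 ± 0.551 CPM with Ad CMV GFP and 5.99 ± 0.988 CPM with the Esrrg virus (SD, n = 3). Neither iron carrier was called. *SLC25A28* (mitoferrin 2) had a log2 fold change of 0.46 (adjusted p = 0.019, edgeR) at 7.52 to 12.6 CPM, and *SLC25A37* (mitoferrin 1), the isoform known from erythroid cells, one of 0.12 (adjusted p = 0.27) at 45.4 to 51.4 CPM.

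Among the calcium-activated carriers that exchange ATP-Mg for phosphate, none of the 3 tested was called. *SLC25A23* had a log2 fold change of 0.54 (SE 0.11, adjusted p = 0.0028, edgeR) at 30 to 33 CPM with Ad CMV GFP and 38.8 to 51 CPM with the Esrrg virus, and *SLC25A25* one of 0.33 (adjusted p = 0.055). *SLC25A24* was at 5 to 28 counts per library. Of the relatives of the uncoupling proteins, *SLC25A14* and *SLC25A30* had log2 fold changes of 0.063 and 0.072, neither past the threshold. *SLC25A27* (UCP4, known from brain; chromosome 6, 46652915 to 46678190) was called lower on few reads, with 11, 14 and 11 counts against 5, 2 and 6 (log2 fold change -1.47, SE 0.45, adjusted p = 0.021, edgeR). That call was lost without Ad CMV GFP replicate 1 or 3 or Ad CMV 3xFlag-*Esrrg* replicate 3, and with DESeq2.

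Members without an agreed substrate were mostly not called. *SLC25A34* (chromosome 1, 15736258 to 15741392) had 53, 43 and 46 counts with Ad CMV GFP and 30, 28 and 32 with the Esrrg virus, and was called lower (log2 fold change -0.69, SE 0.24, adjusted p = 0.038, edgeR). The groups did not overlap, but of the 6 fits without 1 library the call was kept only without Ad CMV 3xFlag-*Esrrg* replicate 2. *SLC25A46*, an outer membrane protein of the family that is linked to mitochondrial dynamics and to optic atrophy, was at 97.8, 100 and 87.9 CPM against 85.8, 73.3 and 71.5 CPM, under 1.5-fold (log2 fold change -0.31, adjusted p = 0.031, edgeR). *SLC25A35*, *SLC25A45* and *SLC25A53* had log2 fold changes of -0.26, 0.025 and 0.16, with adjusted p from 0.26 to 0.89.

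The 9 members that were too low to test had between 0 and 7 counts in any library. *SLC25A6* (ANT3), a translocase found in most tissues, was listed at 0 in all 6 libraries. The gene lies in the region that the X and Y chromosomes share, and 95% of its 31-base words occur elsewhere on the chromosomes. *SLC25A21*, the oxoadipate carrier, was at 0 in all libraries as well, although none of its words occurs elsewhere. A count of 0 allows for up to 3 counts per library, for counting error alone. *SLC25A26*, which imports S-adenosylmethionine, had 0 to 2 counts, and *SLC25A52*, a NAD carrier with 51% of its words elsewhere, had 0 to 3. The testis translocase *SLC25A31* had 0 to 4, *SLC25A41* of the ATP-Mg carriers had 2 to 7, and *SLC25A43*, *SLC25A47* and *SLC25A48* had 2 to 6, 0 to 5 and 0 to 2. No difference between the groups was detectable in these members at their counts. Why *SLC25A21* and *SLC25A26* were at or near 0 is not given in the sources used here.

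Ratios of 2 carriers that share a substrate class, taken from the raw counts within a library, do not depend on how libraries are scaled to each other. For *SLC25A39* over *SLC25A40* the ratio was 1.21, 1.24 and 1.26 with Ad CMV GFP and 2.99, 4.18 and 5.08 with the Esrrg virus, a log2 difference of 1.69. *SLC25A13* over *SLC25A12* was at 2.88, 2.87 and 2.91 and at 3.38, 4.85 and 5.08 (log2 difference 0.60). The balance thus moved towards *SLC25A39* and *SLC25A13* in every Esrrg library. The ratio of *SLC25A42* to *SLC25A16* went from 0.135, 0.15 and 0.13 to 0.248, 0.41 and 0.437, and that of *SLC25A33* to *SLC25A36* from 0.159, 0.182 and 0.164 to 0.292, 0.496 and 0.506. The translocases differed from these pairs, with *SLC25A5* over *SLC25A4* at 5.22, 5.72 and 5.12 and at 4.69, 5.53 and 5.65, so that the groups overlapped. *SLC25A28* over *SLC25A37* overlapped also, at 0.159 to 0.198 and 0.187 to 0.257. In a two-sided exact permutation test with 3 libraries against 3 no p can be lower than 0.1. That value was reached by the 4 pairs without overlap (0.15 after Benjamini-Hochberg adjustment over the 6 pairs), and the other 2 had exact p = 0.8 and 0.2. The pairs were chosen after the values of their members had been seen. These p-values therefore describe the separation of the groups and are no independent test of it.

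**Figure D3:**
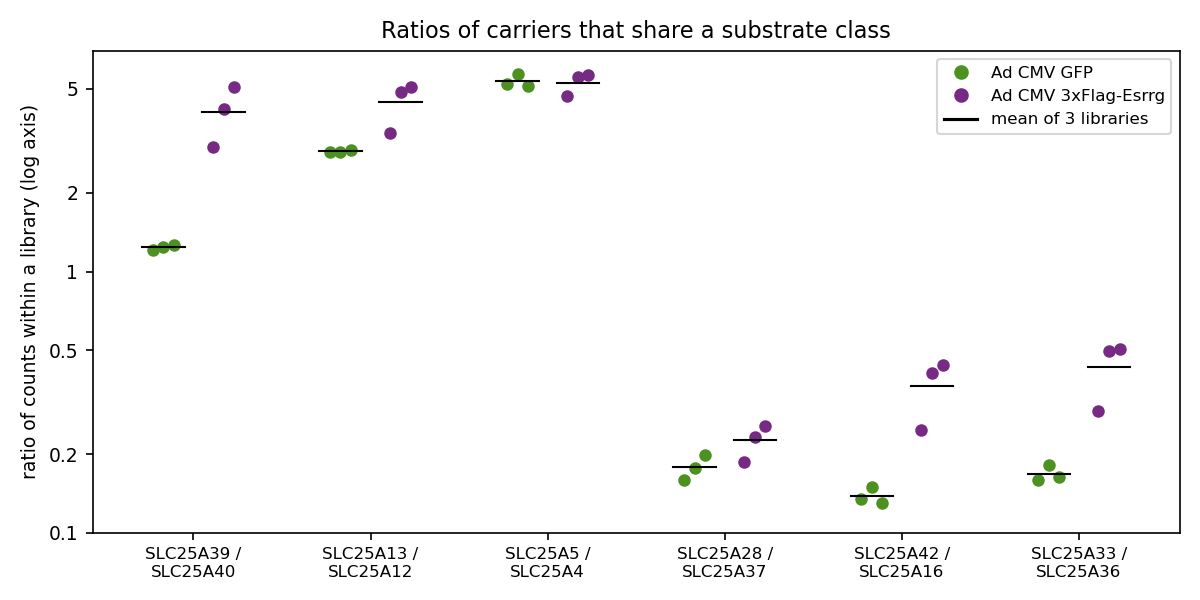
The ratio of the counts of 2 carriers within a library (y axis, log scale) is shown for 6 pairs, with 1 point per library and the mean of 3 libraries as a bar. For 4 pairs all Ad CMV 3xFlag-*Esrrg* points (purple) lie above the Ad CMV GFP points (green), most clearly for *SLC25A39* over *SLC25A40*, and *SLC25A5* over *SLC25A4* stays near 5 in both groups.

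Levels of different carriers were compared as CPM per kilobase of annotated exon. With Ad CMV GFP, the order was led by *SLC25A5* (78.6 ± 8.32, SD, n = 3), *SLC25A1* (44.3 ± 2.86), *SLC25A3* (35.7 ± 2.74), *SLC25A13* (21.1 ± 1.05) and *SLC25A39* (13.6 ± 1.01). With the Esrrg virus the same 5 carriers led in the same order, at 197 ± 53.2, 105 ± 24.1, 89.6 ± 22.2, 46.8 ± 7.95 and 41.3 ± 10.4 CPM per kilobase. The SD ranges of *SLC25A1* and *SLC25A3*, and of *SLC25A13* and *SLC25A39*, overlapped there. These SDs leave aside that both genes of a pair were counted in the same libraries, and the difference within a pair was not tested. The translocase *SLC25A4* was much lower than *SLC25A5*, at 4.74 ± 0.387 and 11.9 ± 2.2 per kilobase. The order depends on the length used. Per kilobase of coding sequence, *SLC25A3* was first in both groups (292 and 734), followed with Ad CMV GFP by *SLC25A5* (137), *SLC25A36* (105) and *SLC25A1* (94.9).

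**Figure D4:**
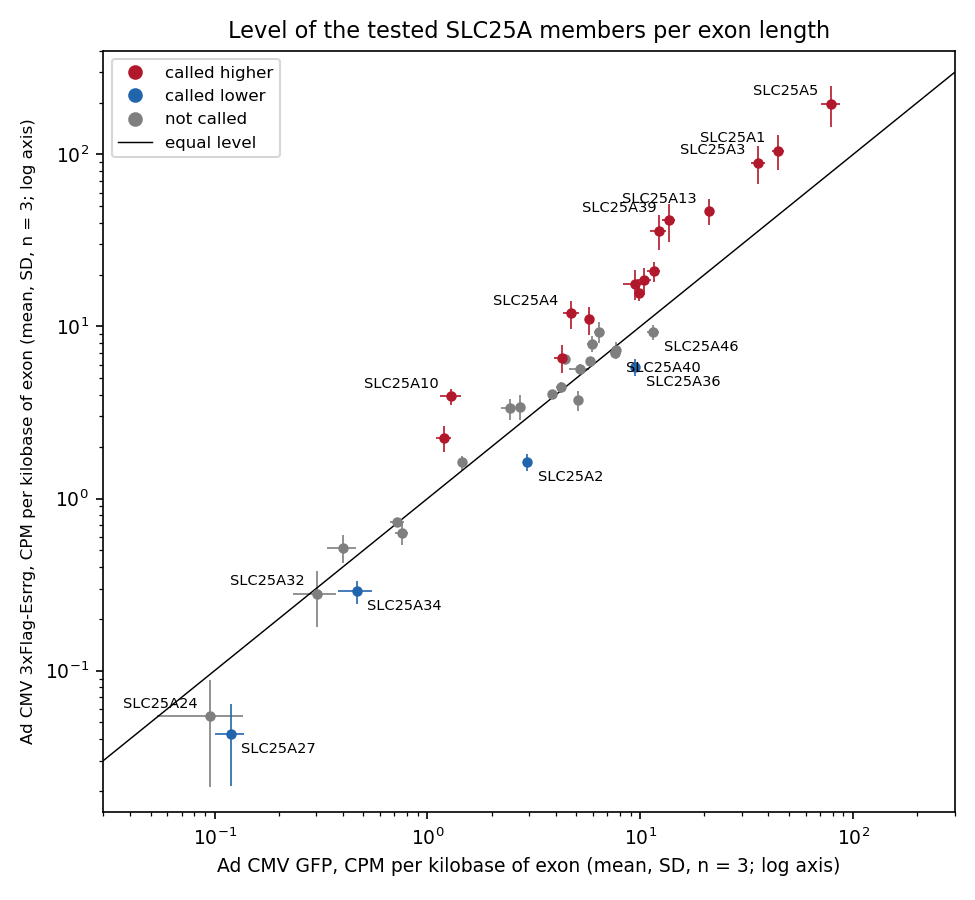
The level of each tested SLC25A member in CPM per kilobase of exon is plotted, with 1 left out, for Ad CMV 3xFlag-*Esrrg* (y axis) against Ad CMV GFP (x axis), both on log scales, with the mean and SD of 3 libraries. Points above the line of equal level were higher with the Esrrg virus, and the 5 most abundant, from *SLC25A5* at 78.6 to *SLC25A39* at 13.6 with Ad CMV GFP, all lie above it.

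The abundance and composition of the members are given as a description, without a test. The median of the mean count per library was 1579 for the 16 called higher, for the 19 not called 574 and for the 4 called lower 69.3, beside 828 for tested protein-coding genes. Their median GC contents were 50.7%, 46.8% and 46.2%, beside 47.7%, with overlapping ranges (43.9% to 65.6%, 32.1% to 59.5% and 37.3% to 59.4%), and their median exon lengths 3618, 5926 and 3312 bases, beside 5367. With a smooth correction of each library for GC content and length, 14 members were called higher and 4 lower. Their family median log2 fold change was 0.28, against 0.098 over protein-coding genes (0.12 in the main fit). Shares of all genes called are given for the main fit only. The share of reads on no gene also moved with the virus. With that share as a covariate 9 members were called higher and 0 lower at a median of 0.20, against 0.024 over protein-coding genes. In that fit 16 members were higher and 3 lower at an unadjusted p below 0.05 in edgeR's test, and DESeq2 without the covariate called 18 higher and 2 lower. Without Ad CMV 3xFlag-*Esrrg* replicate 2, 21 were called higher and 5 lower.

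Over all 19 other fits, 8 of the 20 called members kept their call in each, and none was called in the opposite direction in any. Among these 8 were *SLC25A1*, *SLC25A3*, *SLC25A4*, *SLC25A10*, *SLC25A11*, *SLC25A13* and *SLC25A39*. *SLC25A5* lost its call only with the share of reads on no gene as a covariate, where its log2 fold change was 0.54. Across the fits the log2 fold change of *SLC25A39* ran from 0.91 to 1.90 and that of *SLC25A10* from 1.14 to 1.76.

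**Figure D5:**
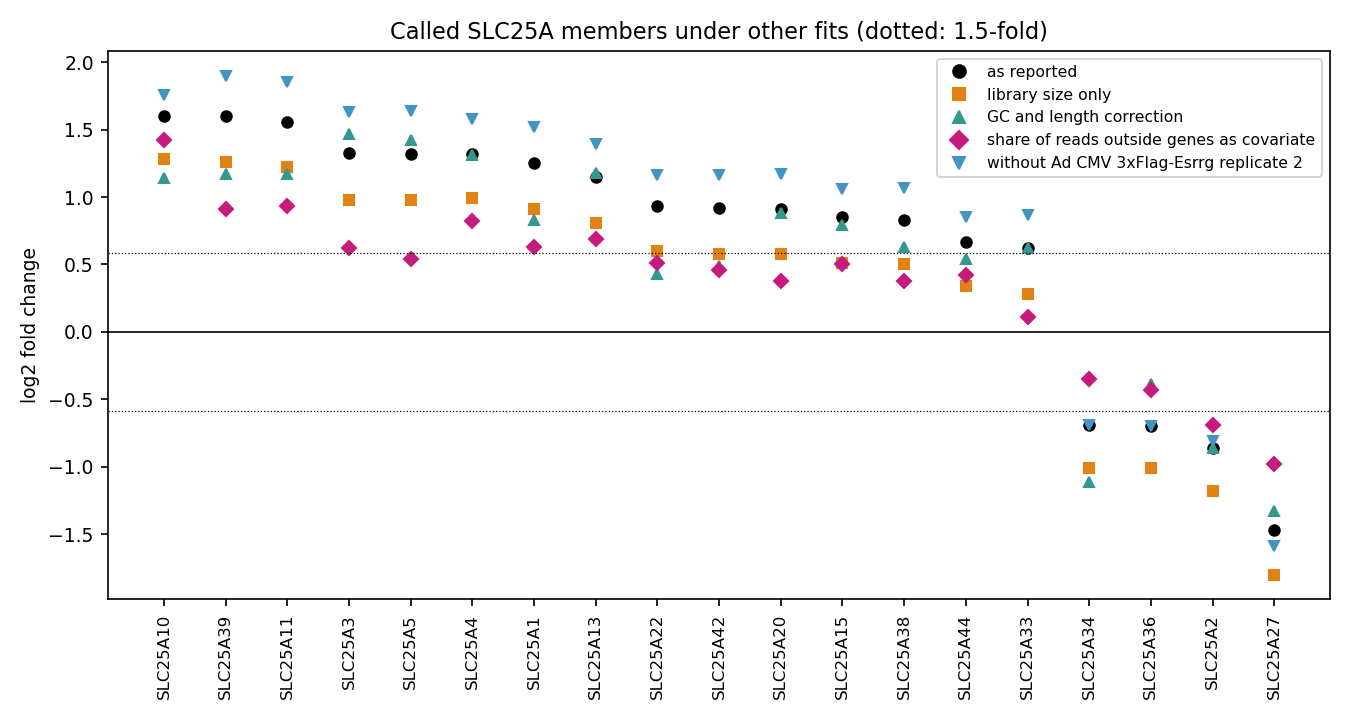
The log2 fold change (y axis) of the called SLC25A members, with 1 left out, is shown as reported (black) and under 4 other fits, with dotted lines at 1.5-fold. No point lies on the other side of 0 from the reported value, the covariate fit (magenta) gives the smallest change for most members called higher, and leaving out Ad CMV 3xFlag-*Esrrg* replicate 2 (blue) gives larger ones for them, up to 1.90 for *SLC25A39*.

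Promoters were read as RefSeq windows on GRCh38.p14, each from 250 bases before to 50 bases after a start site. Windows were found for 40 members, 50 in all since some genes have several starts. The sequence AAGGTCA, searched on both strands, occurred in 1 of these windows (2%) and in 1377 of all 35116 windows (3.92%). The only match belonged to *SLC25A34*, which was called lower, and none of the 15 members called higher that had a window held it. The shorter AGGTCA, which is contained in AAGGTCA, occurred in 4 of the 50 (8%), beside 13.8% of all windows, and the genes were *SLC25A34* and *SLC25A36*, called lower, *SLC25A45*, not called, and *SLC25A22*, called higher. A match of letters is not a binding site, and no match says nothing of sites farther away. To show these windows, their bases from -250 to -51 are given 5′ to 3′ on the gene's strand, with matches in capitals, for the 2 members called lower that hold a match and for *SLC25A39*, 1 of the 2 members with the largest log2 fold change, which holds none. They are chr1:15736008-15736207 (plus strand), chr3:140941586-140941785 (plus) and chr17:44324874-44325073 (minus), and none of their bases is in an annotated exon.
SLC25A34: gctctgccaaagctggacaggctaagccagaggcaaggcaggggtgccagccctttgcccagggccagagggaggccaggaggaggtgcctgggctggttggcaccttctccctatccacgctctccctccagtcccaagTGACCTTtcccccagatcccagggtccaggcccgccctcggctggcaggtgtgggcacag
SLC25A36: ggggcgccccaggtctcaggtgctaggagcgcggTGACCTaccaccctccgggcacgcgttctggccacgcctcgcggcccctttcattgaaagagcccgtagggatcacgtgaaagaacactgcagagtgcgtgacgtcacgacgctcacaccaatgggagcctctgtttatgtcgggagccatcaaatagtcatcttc
SLC25A39: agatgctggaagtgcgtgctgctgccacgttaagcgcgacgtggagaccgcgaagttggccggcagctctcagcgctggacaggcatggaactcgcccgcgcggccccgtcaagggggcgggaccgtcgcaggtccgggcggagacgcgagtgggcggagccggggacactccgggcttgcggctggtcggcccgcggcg
In *SLC25A34* the match was on the opposite strand and began 110 bases before the start (-110), and in *SLC25A36* it began at -216, also on the opposite strand. The stretch of *SLC25A39* held 73% G and C, those of *SLC25A34* and *SLC25A36* 67% and 60.5%. Over whole windows, the median was 72.7% for members called higher (51.3% to 81.3%), 64.3% for tested members not called and 58.7% for all windows.

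Genes that work beside the carriers were described from a list of 38, of which 32 were tested. Of these, 17 were called higher and 0 lower, with a median log2 fold change of 0.81, beside 17.3% of all tested genes and 25.9% of protein-coding genes called higher, 16.8% and 12.4% called lower, and medians of -0.10 and 0.12. The other 6 were too low to test. No tested gene of the list had a negative change at an unadjusted p below 0.05 in edgeR's test, and DESeq2 called 18 higher and 0 lower. Both subunits of the pyruvate carrier were called higher, *MPC1* at 9.58, 10.5 and 10.4 CPM against 27.1, 41.4 and 38.5 CPM (log2 fold change 1.81) and *MPC2* with a log2 fold change of 1.21. The cytosolic and mitochondrial enzymes of the malate-aspartate shuttle were called higher as well, with log2 fold changes of 2.08 for *GOT1*, 1.55 for *MDH1* and 1.52 for *MDH2* and a 2.84-fold higher level of *GOT2*. *GOT1*, the cytosolic aspartate aminotransferase, was at 18.3, 19.7 and 17.7 CPM against 57.7, 89.8 and 87.8 CPM, the largest difference of the list. *GPD2*, of the alternative glycerophosphate shuttle, had a log2 fold change of 0.11 (adjusted p = 0.40, edgeR).

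The outer and inner membranes hold further transporters. In the outer one, the channels *VDAC1* and *VDAC2* were called higher (log2 fold changes 1.42 and 1.31), and *VDAC3* stayed under 1.5-fold (0.29). Of 5 sideroflexins, a family of inner membrane proteins that includes serine transporters, 4 were called higher, from 0.94 for *SFXN2* to 1.74 for *SFXN4*. *UCP2* and *MTCH1*, carrier-fold genes named outside the SLC25A series, were called higher at 1.13 and 1.23. Of the machinery that inserts carriers into the inner membrane, the small chaperones *TIMM9* and *TIMM10* and the subunit *TIMM29* were called higher (0.69, 1.51 and 0.93), *TIMM10B* and *AGK* were not (0.07 and 0.38), and *TIMM22* was listed at 0. Of the 6 tested genes of the calcium uniporter edgeR called 0, with log2 fold changes of 0.31 for the pore *MCU* and -0.22 for its paralog *MCUB*. At an unadjusted p below 0.05, 3 of these 6 were higher, and DESeq2 called 1.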

How the data were processed

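RNA sequencing of 6 libraries of SH-SY5Y cells was analysed. The authors deposited raw HTSeq counts per human gene, and their processing notes name Trim Galore 0.6.7, STAR 2.7.9a, HTSeq 0.11.3, CASAVA and DESeq2 with GRCh38. The annotation release and the strand setting are not given in the sources used here. Groups and replicate numbers came from the labels. Identifiers were matched to GENCODE release 44 (60419 of 67060, 90.1%). Summary entries for reads on no gene, for ambiguous reads and for those with several alignments (29.47% to 52.22%, 4.548% to 9.842% and 7.162% to 13.04% of reads) stayed out of library sizes and tests. Ambiguous reads were 4.548% to 4.873% with Ad CMV GFP and 5.692% to 9.842% with the Esrrg virus. Those with several alignments were 7.162% to 7.407% and 9.333% to 13.04%. The part of this difference in the values of members with repeated or overlapping sequence was not tested.

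Counts were analysed with edgeR 4.0.16 in R 4.3.3. Genes passed filterByExpr (24500), were scaled by TMM and were compared by the quasi-likelihood test on group. A gene was called at an adjusted p (Benjamini-Hochberg) under 0.05 and at least 1.5-fold. CPM are counts per 1000000 after TMM scaling, SE is the size of the log2 fold change divided by the root of F, and levels between genes were divided by exon length. A filter on low counts passes genes that are high in 1 group only, so counts over tested members are not counts over all. The main edgeR fit and DESeq2 were run on simulated counts of 24500 genes, 200 of them changed. They recovered 162 and 161 of these, with 5 and 6 false calls. In the data 34.1% of tested genes were called, so the simulation does not cover so wide a change, nor the other fits. Word searches used 31-base words of the longest transcript. Motif windows are RefSeq's. The 19 alternative fits were RLE or library size scaling, DESeq2 1.42.0, no filter, a minimum of 10 counts per library, no fold threshold, 2-fold, a test against 1.5-fold, only protein-coding genes, leaving out each library, replicate number as a block, a GC content and length correction (mgcv 1.9.3), both, and the share of reads on no gene as a covariate. Members are named, except 1 that is not reported here, with values per library for called members and the translocase, phosphate, citrate, oxoglutarate and aspartate/glutamate carriers. The members and lists were chosen with earlier results of these data known. Protein sequences were not used here, and AGGTCA and the pairs of carriers were added after values had been seen. Python 3.11.15, pandas 2.3.3, numpy 2.4.6 and matplotlib 3.10.9 made the tables and plots.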

Additional observations from a re-analysis of the deposited data

How the results depend on the processing

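With 3 libraries a group, members with few counts had wide errors (SE 0.50 for *SLC25A24*). The number of members called higher (16) was 10 with library size as the only scaling, 9 with a 2-fold threshold and 9 with the share of reads on no gene as a covariate, and 15 to 21 with 1 library left out. The number called lower (4) was 7 with library size only, 2 with DESeq2, 1 with 2-fold, 0 with the test against 1.5-fold and 0 with the covariate, and 2 to 5 with 1 library left out. In the test against 1.5-fold 3 members were lower at an unadjusted p below 0.05. The call of *SLC25A34* was lost without any one of Ad CMV GFP replicates 1, 3 and 4 and Ad CMV 3xFlag-*Esrrg* replicates 3 and 4 (log2 fold change -0.76 to -0.53 over the 6), and that of *SLC25A27* without Ad CMV GFP replicate 1 or 3 or Ad CMV 3xFlag-*Esrrg* replicate 3 (-1.70 to -1.09). That of *SLC25A33* was lost without Ad CMV GFP replicate 1 or Ad CMV 3xFlag-*Esrrg* replicate 3 or 4 (0.54 to 0.87). The median log2 fold change of the members (0.42) was 0.09 with library size only, 0.28 with protein-coding genes only, 0.28 with the GC content and length correction and 0.20 with the covariate, and 0.34 to 0.61 with 1 library left out, highest without Ad CMV 3xFlag-*Esrrg* replicate 2. Related genes called higher (17) were 10 with the covariate and 16 to 20 with 1 library left out, and those called lower stayed at 0. The cause of these shifts was not tested.

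The replicate numbers 3 and 4 occur in both groups. Deviations of same-numbered libraries from their group means had correlations of 0.075 and -0.000102 over 24500 genes. With so few pairs, and group means of 3 libraries, this cannot show whether same-numbered libraries shared a culture or a preparation. As a block, the replicate number gave 17 members higher and 4 lower at a median of 0.46, and with the GC content and length correction 14 and 4 at 0.32. The medians over protein-coding genes in these fits were 0.16 and 0.12.

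The log2 fold changes that changed sign belonged to members that were not called. With library size only, these were *SLC25A14* (-0.26), *SLC25A25* (-0.0069), *SLC25A30* (-0.25), *SLC25A37* (-0.20), *SLC25A45* (-0.30), *SLC25A51* (-0.21) and *SLC25A53* (-0.16). With protein-coding genes only they were *SLC25A14* (-0.075), *SLC25A30* (-0.064), *SLC25A37* (-0.014), *SLC25A45* (-0.11) and *SLC25A51* (-0.019). With the GC content and length correction they were *SLC25A25* (-0.035), *SLC25A32* (0.052), *SLC25A40* (0.13), *SLC25A45* (-0.34) and *SLC25A51* (-0.077), and with the block added *SLC25A25* (-0.01), *SLC25A40* (0.16), *SLC25A45* (-0.42) and *SLC25A51* (-0.10). With the covariate they were *SLC25A14* (-0.13), *SLC25A18* (-0.099), *SLC25A24* (0.25), *SLC25A25* (-0.086), *SLC25A29* (0.064), *SLC25A32* (0.45) and *SLC25A51* (-0.029). DESeq2 gave 0.0032 for *SLC25A29*, and the filter of 10 counts -0.0032 for *SLC25A45*. With 1 library left out, *SLC25A29* ran from -0.11 to 0.0084, *SLC25A32* from -0.31 to 0.11 and *SLC25A45* from -0.033 to 0.13.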

Other observations

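The table also held 43 pseudogenes of the SLC25A series, of which 23 were at 0 in all libraries and 8 could be tested. Together they held 2418 counts, 0.608% of the 397928 counts of the members. The processed pseudogene *SLC25A14P1* was called lower, at 2.37 ± 0.0428 CPM with Ad CMV GFP and 1.08 ± 0.324 CPM with the Esrrg virus (SD, n = 3; log2 fold change -1.12, adjusted p = 0.0033 in edgeR's quasi-likelihood test), while its parent *SLC25A14* overlapped between the groups (log2 fold change 0.063). The antisense gene *SLC25A5-AS1*, which overlaps 13.2% of the exon bases of *SLC25A5*, was called higher at 1.04 ± 0.235 and 1.65 ± 0.14 CPM (log2 fold change 0.65, adjusted p = 0.044, edgeR). Since the strand setting of the counts is not known, reads of this pair cannot be told apart. *SLC25A25-AS1* had a log2 fold change of 0.36 (adjusted p = 0.10, edgeR).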
